A study of Mus musculus with 4 samples.

Results

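Horizontal cells were picked out of the single-cell RNA-seq data by their own transcripts: a cell barcode was taken when it held 2 or more UMIs (unique molecular identifiers, 1 per captured transcript) of Lhx1, none of Slc17a6 and a mitochondrially encoded share of UMIs under 10%. The rule found 415 cells, which were 12.8% of the 3237 barcodes in the count matrix (exact Clopper-Pearson 95% interval 11.7% to 14%) and 15.4% (14% to 16.8%) of those with a mitochondrial share under 10%. The study profiled 4 retinas of C57BL/6 mice aged 3 months. Dissociated cells that were GFP-positive in a Brn3b::GFP reporter, Brn3b being the protein of Pou4f2, were enriched by FACS, and 10x Genomics 3′ V2 libraries were sequenced on an Illumina instrument. The labels call the cell type of all 4 samples retinal ganglion cells, and no other genotype or treatment is given. The barcodes carry 1 common suffix and are not tied to a retina, so the data are 1 pooled sample: there is no replicate error, no test was possible, and every interval below covers counting error only.

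Horizontal cells are inhibitory interneurons whose processes meet rod and cone terminals in the outer plexiform layer and feed back on photoreceptors. In the mouse they are axon-bearing, are coupled to one another through gap junctions, and depend during development on Lhx1 for their laminar position and on Onecut1 and Prox1 for their production. Calbindin, encoded by Calb1, is their usual immunohistochemical marker, while ganglion cells, the aim of the sort, are the output neurons that express Slc17a6 and the Pou4f genes.

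The comparison group was the 2134 barcodes without an Lhx1 UMI and with the same mitochondrial limit, compared as CPM, a gene's UMIs per 1000000 UMIs of the pooled group. Of its 22211096 UMIs, 14518466 came from 835 ganglion barcodes, so ganglion cells weigh most in this group as a whole. A single gene's UMIs in it can still come mostly from other barcodes. Ganglion barcodes gave 467 of its 800 Onecut2 UMIs, but 9 of its 50 Onecut3 UMIs and 3 of its 28 Bmp4 UMIs. For that reason levels are also given for 6 classes set by simple rules on other genes: ganglion, amacrine (101 barcodes), bipolar (318), Müller glia (214), microglia or macrophage (149) and cone (91). The genes of those rules are no finding in their own class. Horizontal cells held a median of 11209 UMIs (3423 to 19542) and 3605 genes, with a median mitochondrial share of 6.86%, against 16418 UMIs and 3.97% in ganglion barcodes and medians of 3654 to 5574 UMIs in the other 5 classes. A doublet caller (Scrublet) marked 9 of the 415 cells, 2.17%. Microglial markers, which horizontal cells should lack, summed to 141 CPM over 10 genes in horizontal cells and to 110, 112, 120 and 120 CPM in the ganglion, amacrine, bipolar and Müller groups. Of the 415 cells 26 also met the gene rule for bipolar cells. The gene rules for amacrine cells, Müller glia, microglia and cones were met by 1 cell each.

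Lhx1 and Slc17a6 chose the cells, so their values are a description. Lhx1 lies at chr11:84518284-84525535 on the minus strand (mm10), and its UMIs per horizontal cell ran from 2 through a median of 4 to 14, or 347 CPM pooled. Its neighbour Lhx1os, a long non-coding RNA gene on the opposite strand at chr11:84525660-84535831, was not part of the rule. Lhx1os reached 906 CPM in horizontal cells (95% Poisson interval 878 to 933) and 35.5 CPM in the comparison group, with 0, 10 and 38 UMIs as the lowest, median and highest cell. Thus 99.8% of horizontal cells held an Lhx1os UMI, against 24.2% of ganglion barcodes. After thinning every cell to 9500 UMIs, the shares were 100% and 15%. Among the Lhx1-free barcodes 372 also held an Lhx1os UMI, and leaving them out of the comparison group is among the settings given at the end.

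The promoter of the pair is shown because the 2 genes start back to back. The 300 bases of RefSeq (GRCm38.p6) from 250 before to 50 after the Lhx1 start, chr11:84525485-84525784, are given on the minus strand, and the capitals mark the 125 bases between the start of Lhx1 and that of Lhx1os. Of these 300 bases 65.7% are G or C, against a median of 52.7% over all promoters in the table, and they hold 31 CpG dinucleotides against a median of 7.
Lhx1 promoter: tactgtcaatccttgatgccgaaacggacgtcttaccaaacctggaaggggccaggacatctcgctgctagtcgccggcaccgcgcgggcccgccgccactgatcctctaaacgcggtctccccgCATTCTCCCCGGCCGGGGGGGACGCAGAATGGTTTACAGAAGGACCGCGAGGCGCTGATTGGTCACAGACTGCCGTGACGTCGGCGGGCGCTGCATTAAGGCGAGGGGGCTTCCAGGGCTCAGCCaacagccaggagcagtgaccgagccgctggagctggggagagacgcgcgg

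The other markers bore out the label. Onecut1, a cut-homeodomain factor, stood at 42.8 CPM (37.1 to 49.2) against 2.39, a ratio of 17.9 (13.2 to 24.8). Calb1 stood at 3497 CPM against 215, a ratio of 16.3 (15.7 to 16.8), with 6, 31 and 143 UMIs in the lowest, median and highest horizontal cell. Sept4, a septin, stood at 3911 CPM against 234, a ratio of 16.7 (16.2 to 17.3), with 6, 41 and 110 UMIs per cell. Calb1 and Sept4 were thus detected in every horizontal cell. They were also detected in 54.3% and 76.4% of 772 ganglion barcodes thinned to 9500 UMIs (66.7% and 88.4% before thinning). Onecut1 was detected in 37.3% of horizontal cells, or 31.3% of the 339 that could be thinned to 9500 UMIs. Its share was 1.81% of ganglion barcodes at that depth (3.35% before thinning). The 12 ganglion markers were all 4-fold or more lower, beside 14.8% of all compared genes, but Slc17a6 is 1 of them by the rule. The comparison group is also largely ganglion cells by UMIs. Against its barcodes without Slc17a6 the ratios of the ganglion markers Nefl, Nefm and Tubb3 turned, to 2.14, 2.34 and 1.49. Pou4f2, the gene behind the sorting reporter, stood at 1.93 CPM (0.881 to 3.66) in horizontal cells and 84.7 CPM in ganglion barcodes. At 9500 UMIs 2.36% of horizontal cells held a Pou4f2 UMI (exact interval 1.02% to 4.6%) and 46.1% of ganglion barcodes did, against 2.17% and 59.8% before thinning. Pou4f1 stood at 7.27 CPM against 463 in ganglion barcodes, and its 13.1 to 23.3 CPM in the other 5 classes was higher than in horizontal cells. GFP itself was not analysed here.

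**Figure D1:**
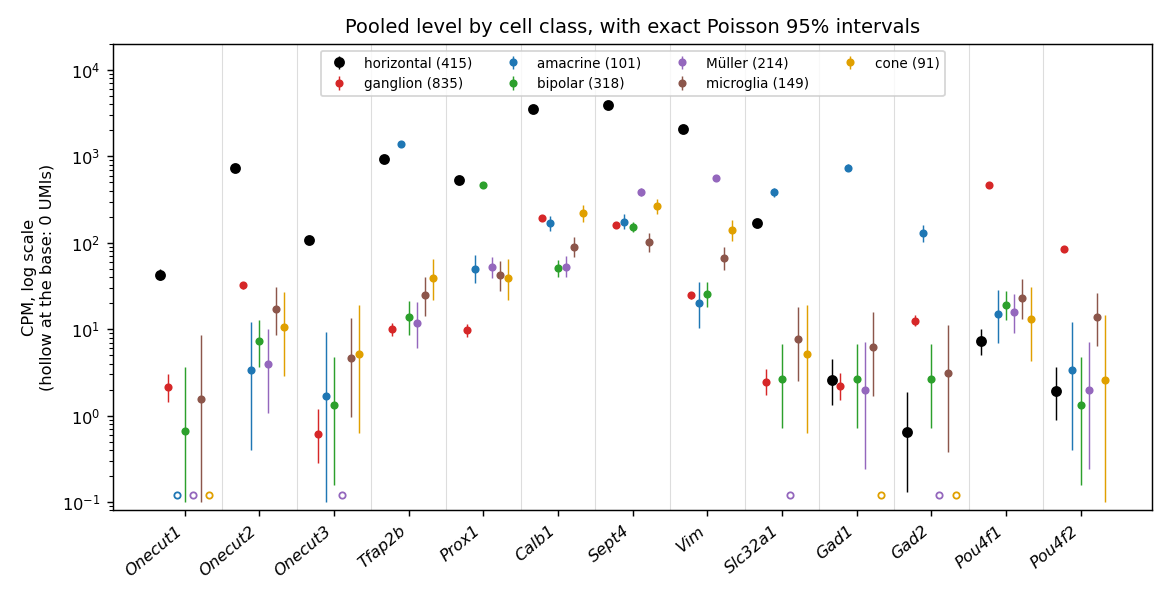
Pooled CPM (log axis) of 13 genes in horizontal cells (black) and in barcodes of 6 other class rules, with exact Poisson 95% intervals that cover counting error only; hollow points at the base have 0 UMIs. The Onecut genes, Calb1, Sept4 and Vim are highest in horizontal cells, Tfap2b and Slc32a1 are higher in amacrine barcodes, and Gad1 is at 2.57 CPM in horizontal cells against 742 in amacrine barcodes.

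Cells on both sides of the threshold looked alike. The 59 barcodes with exactly 1 Lhx1 UMI, just outside the rule, had 766 CPM of Onecut2, 3060 of Calb1 and 3750 of Sept4. The 112 cells with exactly 2, just inside, had 726, 3172 and 3799 CPM of the same genes. The 54 barcodes left out for a single Slc17a6 UMI had 768, 3270 and 3984 CPM, with Pou4f1 at 3.15 CPM. The 12 barcodes with Lhx1 and 2 or more Slc17a6 UMIs were different, with 489 CPM of Onecut2, 364 of Pou4f1 and 220 of the ganglion marker Rbpms, so they held transcripts of both classes. At the mitochondrial limit, the 23 cells with a share from 9% to 10% and the 18 otherwise eligible barcodes from 10% to 11% had 782 and 861 CPM of Onecut2 and 2729 and 2565 of Calb1.

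**Figure D2:**
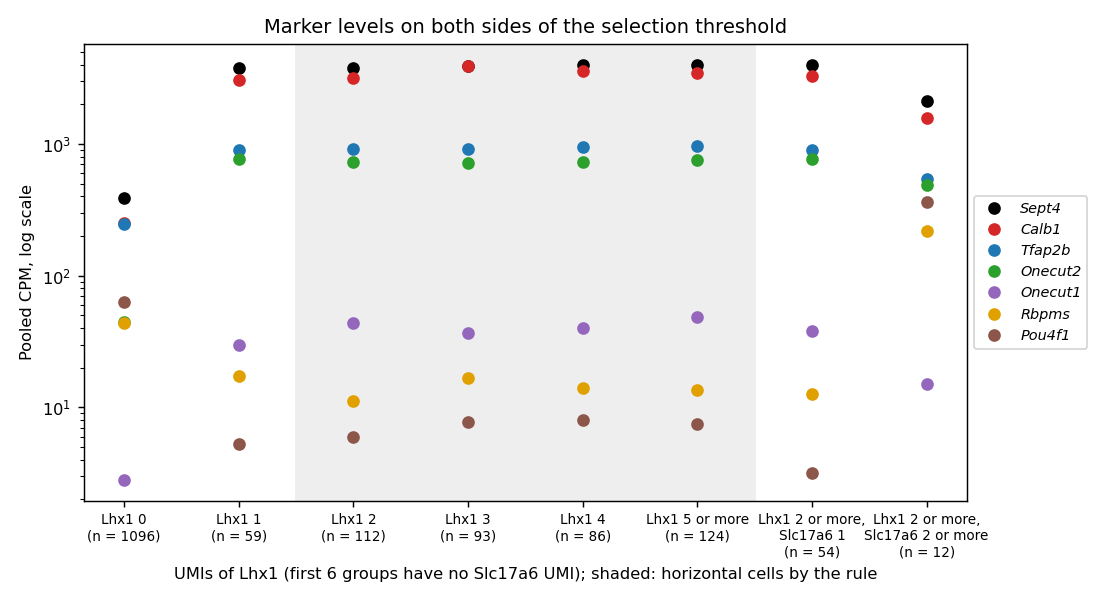
Pooled CPM (log axis) of 7 genes in barcodes grouped by their UMIs of Lhx1 and Slc17a6, with the groups that the rule took shaded. Groups with 1 Lhx1 UMI or 1 Slc17a6 UMI lie level with the shaded ones (Onecut2 at 766 and 768 CPM), while barcodes with 2 or more Slc17a6 UMIs carry 364 CPM of Pou4f1.

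Across the genome, 11385 genes had 100 or more UMIs over both groups. A gene was called at a ratio of 4 or more or its inverse, and since the cells were chosen on this readout the counts are descriptive. Horizontal cells were 4-fold or more higher in 259 genes (2.27% of those compared) and 4-fold or more lower in 1683 (14.8%). These shares are the background for every count over a gene list below. The median log2 ratio of all compared genes was -0.19, and that of the genes on the function lists, which are mostly lists of neuronal genes, was -1.62. Of the 259 higher genes, 228 (88%) were above every one of the 6 classes and 99 (38.2%) were 4-fold above every one. Classes at 0 UMIs were set to 3 counts, and of all compared genes 1347 (11.8%) were above every class. The 6 classes are parts of the comparison group that gave the 259, so a greater share among them is partly built in and no evidence of specificity. Against ganglion barcodes alone 325 genes (3.19%) were 4-fold higher and 1070 (10.5%) lower, and 242 of the 259 were among the former. Against amacrine barcodes alone, where 6268 genes could be compared, 274 (4.37%) were higher and 124 (1.98%) lower, and 176 of the 259 were among the higher. Against the Lhx1-free barcodes without Slc17a6, named genes below 4-fold included Tfap2b (3.78), Prox1 (2.74), Slc32a1 (2.69), Megf10 (2.85), Npy (3.68), Sall3 (1.57) and Esrrb (1.75), and Kcnip2, Kcnip3 and Robo1 were at 3.25, 3.57 and 3.25. Lower genes that no longer passed there included Pvalb (0.745), Cplx1 (0.794), Grin2a (0.431), Gap43 (0.408), Scn1a (0.37) and Chrnb3 (0.33).

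Of 23 compared transcription factors known from horizontal cell biology 8 were higher and 9 lower, with a median log2 ratio of 0.56. Lhx1 is among the 8 by construction. Onecut2 stood at 732 CPM (708 to 757) against 36, a ratio of 20.3, and every horizontal cell held it (1, 8 and 19 UMIs as lowest, median and highest). Onecut3 stood at 108 CPM against 2.25, a ratio of 47.8 (35.7 to 65.3), the highest among genes found in 25% or more of horizontal cells and not used by the rule, and was seen in 62.5% of thinned horizontal cells against 0.648% of ganglion barcodes (69.2% and 1.08% unthinned). The 3 Onecut genes were each highest in horizontal cells among all classes, with Onecut2 next in ganglion barcodes at 32.2 CPM.

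Other factors were shared with a neighbouring class. Tfap2b, an AP-2 factor, stood at 933 CPM against 81.4 (ratio 11.5) and was detected in every horizontal cell, but amacrine barcodes had 1403 CPM. Its paralogue Tfap2a stood at 26.1 CPM in horizontal cells and 154 in amacrine barcodes, and was short of the threshold at a ratio of 3.81. Prox1, a homeodomain factor, stood at 534 CPM (ratio 8.68) with 468 CPM in bipolar barcodes and 9.71 in ganglion barcodes. Prox1 overlaps its antisense gene Prox1os (100 CPM, ratio 4.56), and reads of the pair may not be separable because the strand setting of the counting is not given in the sources used here. Sall3, a zinc finger factor, stood at 24.4 CPM (ratio 5.36) but at 74.6 and 52.4 CPM in microglia and cone barcodes, and Esrrb, an orphan nuclear receptor, at 15.4 CPM (ratio 4.62) and 20.9 in cone barcodes. Pax6 stood at 505 CPM against 341, a ratio of 1.48. The early factors Ptf1a and Foxn4, which commit progenitors to horizontal and amacrine fates, had no UMI in these adult cells, nor did Lhx9. Isl1 stood at 11.6 CPM against 202, Meis2 at 1.71 against 93.7 and Rxrg at 2.35 against 58.7.

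At the Onecut1 locus, 3 annotated genes were high together. Onecut1 occupies chr9:74861921-74891781 on the plus strand. The non-coding gene Gm20649 (chr9:74848463-74891476) overlaps it on the same strand and stood at 67.8 CPM, a ratio of 32.1, and Gm28182 (chr9:74852909-74855385), on the other strand within Gm20649, stood at 66.1 CPM, a ratio of 44.5. How the counting split reads among them is not known, so the single values are uncertain.

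Genes of GABA handling did not move together. Slc32a1, the vesicular GABA transporter, stood at 171 CPM (160 to 184) against 20, a ratio of 8.55, with 0, 2 and 10 UMIs per cell, and amacrine barcodes had 383 CPM. It was detected in 74.6% of thinned horizontal cells against 2.33% of ganglion barcodes (74.7% and 3.59% unthinned). The genes for the 2 enzymes that make GABA were scarce. Gad1 stood at 2.57 CPM (1.33 to 4.49), with 2.2 in ganglion and 742 in amacrine barcodes, and 1 horizontal cell held 33.3% of its 12 UMIs. Gad2 had 3 UMIs, 0.642 CPM (0.132 to 1.88), against 129 CPM in amacrine barcodes, and after thinning it was seen in 0 of 339 horizontal cells, which allows a share with a UMI at this depth of up to 0.885% (0.723% of all horizontal cells held one before thinning). Abat, which breaks GABA down, stood at 2.14 CPM against 58. In all 5 of the 9 compared genes of this list were lower and 1 was higher.

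Many receptor genes were lower. None of 32 compared glutamate receptor genes and auxiliary subunits was 4-fold higher and 19 were lower, among them Gria1 (0.642 CPM against 18.1), Grin2a (3.42 against 47.1) and Grin2b (1.28 against 46.1). The AMPA receptor subunits Gria2 and Gria4 were not, at 270 CPM against 209 and 88.6 against 48.5. Cacng3, an AMPA receptor auxiliary subunit, stood at 353 CPM against 99.3, a ratio of 3.55, and was above each of the 6 classes, of which amacrine barcodes came next at 193 CPM. Of 17 compared GABA and glycine receptor genes none was higher and 8 were lower. Against these lower counts stand the 14.8% of all compared genes that were lower.

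A few receptors for amines were high. Adra2a, an inhibitory adrenergic receptor, stood at 509 CPM (489 to 530) against 21, a ratio of 24.2, with 0, 6 and 17 UMIs per cell, and no other class passed 18.3 CPM. Drd1, the D1 dopamine receptor, stood at 119 CPM, a ratio of 5.56, with 63.8 CPM in amacrine barcodes. Hrh3, a histamine receptor, stood at 82.8 CPM, a ratio of 4.93. Of the 17 compared receptors of this list these 3 were higher and 9 were lower, among them Adora1 (2.35 CPM against 108) and the nicotinic subunits Chrna6 (4.92 against 193) and Chrnb3 (5.35 against 133).

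**Figure D3:**
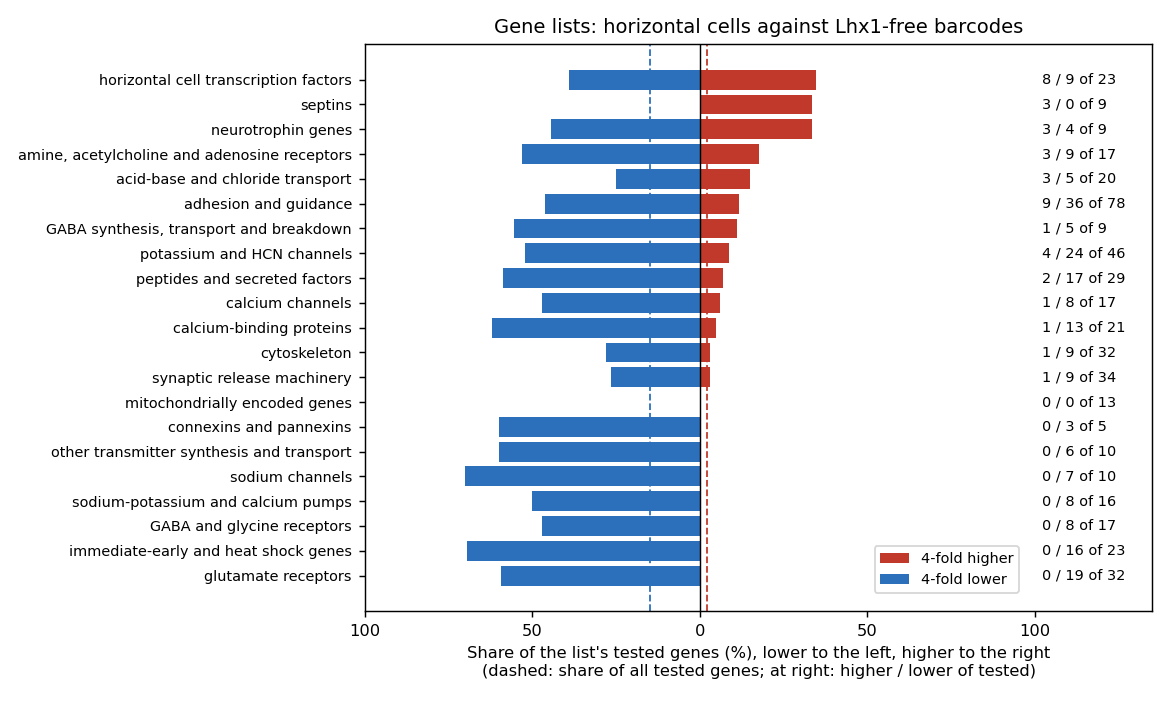
Share of each list's compared genes that were 4-fold higher (red, to the right) or lower (blue, to the left) in horizontal cells than in Lhx1-free barcodes, with dashed lines at the shares over all compared genes (2.27% and 14.8%). Lhx1 is in the transcription factor list and Slc17a6 in the list of other transmitters. Septins have 3 of 9 genes higher and none lower, and sodium channels 7 of 10 lower and none higher.

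A few channel genes were high and many were low. Cacna1h, a low-voltage-activated T-type calcium channel, stood at 262 CPM (247 to 277) against 21.5, a ratio of 12.2, while 8 of the 17 compared calcium channel genes were lower. Kcnj2, a strong inward rectifier, stood at 45.8 CPM against 2.03, a ratio of 22.6. The other higher genes of 46 compared in the potassium and HCN list were Kcnj3 (95.9 CPM, ratio 5.93), a G protein-gated inward rectifier, and the channel-interacting proteins Kcnip2 (23.5 CPM, ratio 6.01) and Kcnip3 (104 CPM, ratio 4.75). Kcnip3 was nearly as high in amacrine barcodes, at 87.3 CPM, a ratio of 1.19 (0.892 to 1.62). The same list had 24 lower genes, with Kcna1 at 2 UMIs (0.428 CPM against 58.1) and Kcnc2 at 2.14 CPM against 55.1. Voltage-gated sodium channel genes were lower in 7 of 10 cases, beside 14.8% of all compared genes, and none was higher. Scn1a stood at 6.21 CPM against 118 and Scn3b at 1.28 against 34. The sodium channel list summed to 241 CPM in horizontal cells, 508 in amacrine barcodes and 1342 in ganglion barcodes. Its sum was below that of horizontal cells, at 177 CPM or less, in bipolar, Müller, microglia and cone barcodes.

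Of 20 compared genes in the list of acid-base and chloride transport 3 were higher and 5 lower, with a median log2 ratio of -0.25. Slc4a3, an anion exchanger, stood at 1452 CPM (1417 to 1487) against 128, a ratio of 11.3, with 1, 16 and 36 UMIs per cell. Slc4a5, a sodium bicarbonate cotransporter, stood at 210 CPM, a ratio of 20.4. Slc12a2, the chloride-importing cotransporter NKCC1, stood at 206 CPM against 15.4, a ratio of 13.4 (11.8 to 15.2), and the 6 classes ranged from 10.9 to 28.8 CPM. The chloride-extruding Slc12a5 did not differ in this way, at 320 CPM against 358. No list held Slc12a7, a potassium-chloride cotransporter (125 CPM, ratio 23), Wnk4, a kinase (227 CPM, ratio 23.3), or Bsnd, the accessory subunit barttin of ClC-K chloride channels (128 CPM against 4.77, ratio 26.8), which are named as members of the 30 highest ratios.

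In the list of gap junction genes none of 5 compared was higher and 3 were lower, and the other 2 were Gjc1, a connexin (5.78 CPM against 5.09), and Tjp1, the junction scaffold ZO-1 (60.8 against 17.4, ratio 3.49). Gja10, the mouse connexin known from horizontal cells, had 54 UMIs in horizontal cells and 7 in the comparison group, too few for the 100-UMI minimum. That was 11.6 CPM (8.68 to 15.1) against 0.315, a ratio of 36.7 (16.6 to 95.5). After thinning to 9500 UMIs, 9.73% of horizontal cells held a Gja10 UMI, and 0 of 772 ganglion barcodes did, which allows a share with a UMI at this depth of up to 0.389% (12.8% and 0.12% unthinned). The 3 lower were Gjd2, the connexin of amacrine and bipolar cell junctions (2.78 CPM against 28.5), and the pannexins Panx1 (2.57 against 17.2) and Panx2 (6.21 against 58.6).

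Among cytoskeletal genes the intermediate filament gene Vim stood out, at 2089 CPM (2048 to 2131) against 94.9, a ratio of 22. Its UMIs ran from 1 through a median of 23 to 66 per horizontal cell, and Müller glia, where vimentin is a standard marker, came next at 569 CPM. Other Müller markers summed to 788 CPM over 10 genes in horizontal cells, 585 in ganglion barcodes and 46359 in Müller barcodes. Septins, which build membrane-bound filaments, were higher in 3 of 9 cases, Sept4 included, and lower in none. Sept7 stood at 2492 CPM against 323 (ratio 7.72) and Sept8 at 548 against 78.7 (ratio 6.96), and Sept6 at 241 against 85.3 (ratio 2.83). Cdc42ep4, a protein known to bind both Cdc42 and septins, stood at 828 CPM, a ratio of 21.1, and was named after its value was seen. Of 32 compared genes in the cytoskeleton list Vim was the only one higher, 9 were lower and 22 lay between. Among the 9 were Nefl at 365 CPM against 1486, Nefm at 93.5 against 425, Tubb3 at 117 against 533 and Gap43 at 44.3 against 432. Each of Nefl, Nefm and Tubb3 was nevertheless above its level in bipolar, Müller, microglia and cone barcodes, and against the Lhx1-free barcodes without Slc17a6 the ratios turned, to 2.14, 2.34 and 1.49.

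Of 21 compared genes for calcium-binding proteins, Calb1 was the only one 4-fold higher, 13 were 4-fold lower and 7 lay between. Over all compared genes 2.27% were higher and 14.8% lower. Calb2, calretinin, stood at 128 CPM against 4225, Pvalb, parvalbumin, at 15 against 308 and Hpca, hippocalcin, at 8.99 against 206. Pvalb was at 10.8 to 18.3 CPM in bipolar, Müller, microglia and cone barcodes, the same range as in horizontal cells.

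Adhesion and guidance genes split, with 9 of 78 compared genes higher and 36 lower, beside 2.27% and 14.8% of all compared genes. Megf11 and Megf10, transmembrane proteins known for spacing horizontal cells into a mosaic, stood at 279 CPM (ratio 31.6) and 52.2 CPM (ratio 8.99). Megf11 was at 15.7 CPM or less in every other class and was seen in 92.3% of thinned horizontal cells (93.7% unthinned), whereas Megf10 was higher in Müller glia, at 85.8 CPM. Lrrc4, a synaptic leucine-rich repeat protein, stood at 453 CPM (434 to 472) against 18.2, a ratio of 24.8, with 0, 5 and 17 UMIs per cell. The others were the guidance ligands and receptors Slit1 (26.3 CPM, ratio 9.91), Plxna4 (57.6 CPM, ratio 7.1), Sema6d (68.9 CPM, ratio 5.69) and Robo1 (12.6 CPM, ratio 5.19, but 20.1 CPM in amacrine barcodes), and the adhesion molecules Sdk2 (110 CPM, ratio 5.09) and Cdh4 (177 CPM, ratio 4.26). The lowest included Tenm3 (1 UMI, ratio 0.00818, 0.000207 to 0.0458), Sema3e (1 UMI, ratio 0.00548), Tenm2 (0.642 CPM against 39.8) and Nrp1 (0.856 against 49.7).

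The GDNF family receptor genes Gfra1, Gfra2 and Ret were higher. Gfra1 stood at 113 CPM (ratio 15.9, 55.4 CPM in amacrine barcodes), Gfra2 at 248 CPM (ratio 13.5, 75.9 CPM in Müller glia) and the shared receptor Ret at 222 CPM (ratio 4.69, 56.5 CPM in ganglion barcodes). Of 9 compared genes in the neurotrophin list these 3 were higher and 4 were lower, among them Bdnf (1.07 CPM against 88) and Ntrk3 (1.93 against 47). Among 29 compared peptides and secreted factors, 2 were higher and 17 lower. For both lists the shares over all compared genes were 2.27% higher and 14.8% lower. Npy, neuropeptide Y, stood at 117 CPM (ratio 6.72) with 0, 0 and 17 UMIs as the lowest, median and highest cell, and 49.9% of thinned horizontal cells held a UMI of it, against 2.72% of ganglion barcodes at that depth (48.4% and 4.19% unthinned). Amacrine barcodes had 53.7 CPM of Npy, and the ratio to them was 2.18 (1.52 to 3.21). Bmp4, a growth factor, stood at 24.4 CPM (ratio 19.3) and at 1.55 CPM or less in every other class. Cartpt stood at 58.4 CPM against 1375, Tac1 at 3.85 against 109 and Penk at 0.856 against 48.5.

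Of 34 compared genes of the release machinery 24 lay between the thresholds, and the list's median log2 ratio was -1.03, against -0.19 over all compared genes. Snap25 stood at 4004 CPM against 4208. Syt2, a fast calcium sensor of release, was the only one 4-fold higher, at 300 CPM against 33.4 (ratio 8.99), with ganglion barcodes next at 37.6 CPM. Among the 9 lower were Cplx1 (30.4 CPM against 324), Sv2c (2.78 against 93.6) and Syt7 (8.77 against 125). Of 16 compared genes for sodium-potassium and calcium pumps and exchangers none was higher and 8 were lower, with the pump modulator Fxyd7 at 18 CPM against 506. The share lower over all compared genes was 14.8%.

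The remaining genes with the 30 highest ratios were of varied function. Ndrg1 was the most abundant of them, at 1048 CPM (1019 to 1078) against 42.7, a ratio of 24.6, with 0, 11 and 33 UMIs per cell. Pcsk6, a proprotein convertase, stood at 466 CPM against 18.1 (ratio 25.7), F2r, the thrombin receptor PAR1, at 359 against 12.7 (ratio 28.3) and Wfdc10, a small secreted protein, at 339 against 12.5 (ratio 27.1). Arhgap15, a Rac GTPase-activating protein, stood at 331 CPM (ratio 26.4) and Prkg2, a cGMP-dependent kinase, at 166 CPM (ratio 26). Enzymes of metabolism were Tecrl (86.4 CPM, ratio 43.6), Marc1 (136 CPM, ratio 37.3), Ddo, D-aspartate oxidase (36.8 CPM, ratio 29.2), Arg2, mitochondrial arginase (47.9 CPM, ratio 23.1) and Pla2g2f, a secreted phospholipase (65.3 CPM, ratio 23). Angpt2, a ligand of the endothelial receptor Tie2, stood at 60.1 CPM (ratio 31.1), while 6 endothelial markers summed to 3.64 CPM in horizontal cells. Hspb3 and Myzap had ratios of 23 and 26.6, and the non-coding or antisense D030047H15Rik, 1700128E19Rik and A530095I07Rik had 29.5, 28.3 and 23.4. All of these were above each of the 6 classes, and all except Arg2, Hspb3, D030047H15Rik and A530095I07Rik by 4-fold or more with classes at 0 UMIs set to 3 counts.

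Several of the 12 lowest ratios had a single UMI over all horizontal cells: Pou4f3 (ratio 0.00436, 0.00011 to 0.0243), Gm12027 (0.00602), Fam19a1 (0.00679), Irx5 (0.00713) and Camk2a (0.00778), beside Slc17a6 itself, which the rule set to 0. The haemoglobin genes Hba-a2, Hba-a1 and Hbb-bs had ratios of 0.00577, 0.0066 and 0.00873. Hba-a1 was at 1.07 CPM in horizontal cells and at 0.689 CPM in ganglion barcodes, so its level in the comparison group did not come from ganglion cells, and without the barcodes called as doublets its ratio turned to 1.58.

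Many immediate-early genes, which dissociation can induce, were lower in horizontal cells. Of 23 compared genes of the immediate-early and heat shock list 16 were 4-fold lower, beside 14.8% of all compared genes, and none was higher. Fos stood at 69.5 CPM against 614, Jun at 70.8 against 550 and Egr1 at 16.7 against 172, all below the 6 classes. Not every lower gene was: Fosb and Ier2, at 21 and 40.9 CPM, were above cone barcodes (15.7 and 34). The list summed to 3341 CPM in horizontal cells, 3311 in amacrine barcodes and 3994 or more in every other class. Glia had the highest levels, with Fos at 3840 CPM in Müller barcodes and 3517 in microglia, and ganglion barcodes had 350. At 9500 UMIs, 42.8% of horizontal cells held a Fos UMI against 84.2% of ganglion barcodes (47.2% and 92.8% unthinned), and the highest horizontal cell held 26. The 13 mitochondrially encoded genes had a median log2 ratio of 0.47, with none past 4-fold, beside the greater mitochondrial share of these cells.

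Promoters of the genes with the 30 highest ratios were searched on both strands for TAATTA, a core that LIM-homeodomain proteins such as Lhx1 bind, and for ATCGAT and ATCAAT, cores bound by Onecut proteins. Leaving out Lhx1, which chose the cells, RefSeq gave 18 promoters of 16 of these genes and 32851 promoters in all, each of 300 bases. TAATTA was in 1 of the 18 (5.56%, against 5.29% of all), ATCGAT in 1 (5.56% against 0.925%), that of Pla2g2f, and ATCAAT in 2 (11.1% against 7.54%), both of Arhgap15. The TAATTA match is in the promoter of Lrrc4 on the minus strand (chr6:28831698-28831997, GRCm38.p6), shown with the match in capitals as the sole promoter of this group with that core.
Lrrc4 promoter: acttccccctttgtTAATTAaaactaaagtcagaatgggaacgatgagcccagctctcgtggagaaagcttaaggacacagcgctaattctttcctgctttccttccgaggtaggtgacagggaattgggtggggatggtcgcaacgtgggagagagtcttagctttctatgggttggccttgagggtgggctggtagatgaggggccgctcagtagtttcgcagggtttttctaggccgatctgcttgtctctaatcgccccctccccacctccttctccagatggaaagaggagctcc

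Variation among horizontal cells was examined after thinning 339 of them to 9500 UMIs, with 76 shallower cells left out (and 63 of the 835 ganglion barcodes). Over 7641 genes seen in 10% or more of these cells, the median ratio of variance to mean was 1.02, where counting alone gives 1, and 103 genes reached 2. Among factors not used by the rule, the ratio was 1.02 for Onecut1, 1.27 for Onecut2 and 1.29 for Tfap2b. The 12 most variable genes included Opn1sw, Pcp2, Gngt1, Pde6h, Gng13, Pde6g and Gnat1, which belong to photoreceptors or bipolar cells. Rod markers summed to 848 CPM in horizontal cells and 783 in ganglion barcodes. UMIs of photoreceptor genes were uneven among horizontal cells: Gngt1 had 0, 1 and 68 UMIs as lowest, median and highest thinned cell, with 14.7% of its UMIs in 1 cell, and for Opn1sw 1 cell held 41.7%. Also among the 12 were Malat1, a nuclear non-coding RNA (variance over mean 200, 78 to 1988 UMIs), Ckb, brain creatine kinase (17.3, from 7 through 30 to 137 UMIs), the glycolytic enzyme gene Gapdh (12.5, from 8 through 27 to 107) and Actb, beta-actin (9.01, from 0 through 4 to 55).

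Ckb varied across cells together with genes of energy metabolism and with Calb1. Over the 339 thinned cells, Pearson's r with Ckb was 0.79 for Aldoa and Gapdh, 0.72 for Mdh1, 0.67 for Ldhb, 0.64 for Pgam1 and 0.63 for Eno1, and 0.74 for the tubulin gene Tuba1a. With Calb1 it was 0.68, but with Onecut2 -0.17 and with Tfap2b 0.04. In 772 ganglion barcodes thinned alike, r between Ckb and Gapdh was 0.68 and that with Aldoa 0.65, while r between Ckb and Calb1 was -0.03. These are descriptions over cells of 1 pooled sample, with the 2 seed genes chosen after their values were seen. Within horizontal cells Ckb at equal depth had r of 0.54 with the cell's full UMI count and -0.40 with its mitochondrial share, and the part of depth in the pattern was not tested.

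Actb varied along with a different set. Its highest r were with Cbx3, a heterochromatin protein gene (0.64), Bhlhe41, a transcriptional repressor of the circadian clock (0.57), Otub1 (0.49) and Ppm1h (0.47), and Marf1 and Slc24a5 had 0.45 and 0.43. Ganglion barcodes gave 0.67, 0.50, 0.52, 0.34, 0.56 and 0.48 for the same pairs. Between Actb and Ckb r was -0.03, and Actb had r of 0.00 with the full UMI count. The genes most like Onecut1 over these cells were Dcakd (0.24), AI480526 (0.23), Imp4 (0.22), Pea15a (0.22) and Klf13 (0.20), values too weak in such sparse counts to be a finding.

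**Figure D4:**
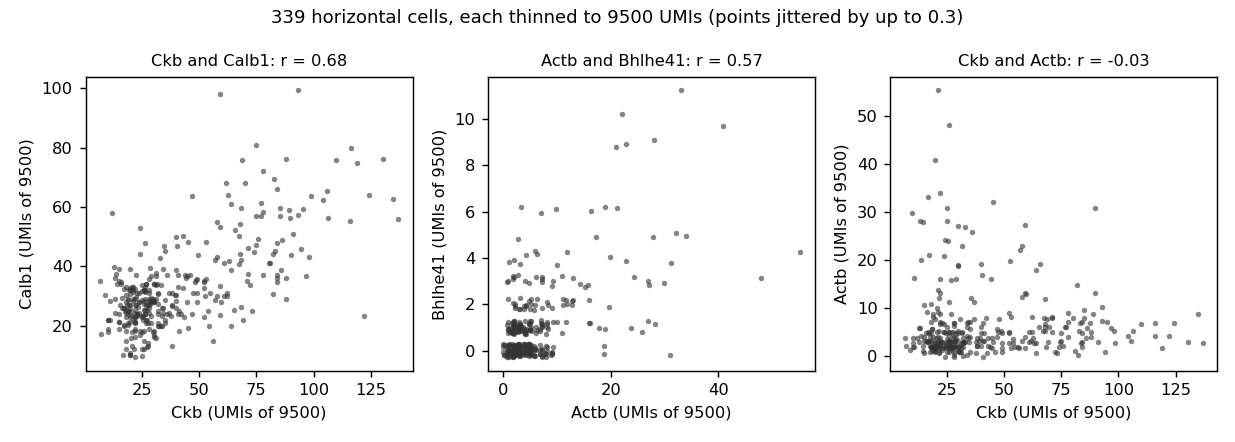
UMIs of gene pairs in 339 horizontal cells, each thinned to 9500 UMIs, 1 point per cell. Calb1 increases with Ckb (r 0.68) and Bhlhe41 with Actb (r 0.57), while Ckb and Actb do not follow each other (r -0.03).

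Leiden clustering of the 415 cells gave 5 sub-clusters, described here by their leading genes without tests. Sub-cluster 1 held 198 cells (47.7%) and had the lowest Actb, at 322 CPM. Sub-cluster 3 held 92 cells (22.2%) and had 1723 CPM of Actb, with Slc24a5 (157 CPM against 32.3 in the rest), Marf1 (234 against 50.5) and Bhlhe41 (323 against 82.8) among its leading genes. Sub-cluster 4 held 106 cells (25.5%) and had 7999 CPM of Ckb against 2910 in the rest, 6424 of Gapdh and 5160 of Calb1, with a median of 13500 UMIs and a mitochondrial share of 6.01%. Onecut2 and Tfap2b there were 632 and 913 CPM, against 776 and 958 in sub-cluster 1. Sub-cluster 2 held 7 cells, 6 of them called as doublets, with 4095 CPM of the bipolar gene Pcp2. Sub-cluster 5 held 12 cells, 2 of them called as doublets, with 2890 CPM of Gngt1. At a finer resolution a cluster of 35 cells had both Ckb (6625 CPM) and Actb (1746 CPM) high, so the 2 patterns crossed.

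Splitting the cells by depth gave the same direction for calbindin. Calb1 was at 2810 CPM in the 139 cells with the fewest UMIs and at 4371 in the 138 with the most, whereas Onecut2 was at 837 and 645 CPM and Vim at 2195 and 2046. By mitochondrial share, Calb1 was at 4062 CPM in the 139 cells with the lowest and 2940 in the 138 with the highest. In contrast the levels across the 4 Lhx1 groups of the rule, from 2 to 5 or more UMIs, stayed within 3172 to 3906 CPM for Calb1 and 711 to 758 for Onecut2.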

How the data were processed

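Cells from 4 retinas were profiled with 10x 3′ V2 chemistry. The authors deposited 1 matrix of UMI counts per gene and barcode, with gene symbols in a separate file; per the submitters' processing notes Cell Ranger, Seurat 2.2 and mm10 were used. How cells were filtered, reads aligned and strand handled is not given in the sources used here. Raw counts were summed over barcodes and divided by the total to give CPM, with exact Poisson 95% intervals; ratios carry exact conditional intervals. A side at 0 was set to 3 counts over the group. Cells and gene lists were chosen with earlier results of these data known.

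Class rules needed no Lhx1 and a mitochondrial share under 10%: ganglion, Slc17a6 2 or more and Rbpms 1 or more; the others, except microglia, no Slc17a6 and Gad1+Gad2+Slc6a9 3 or more (amacrine), Trpm1+Pcp2 4 or more (bipolar), Rlbp1 3 or more (Müller) or Arr3+Pde6h 4 or more (cone); microglia, C1qa+C1qb+C1qc 5 or more. Barcodes meeting more than 1 rule (66) were left out. Genes named are the markers, the 30 highest ratios among genes in 25% or more of horizontal cells, the 12 lowest, called list members, the 12 most variable and the 5 most like Onecut1, beside others given for context; some genes that this rule takes are not reported here. Of 653 listed genes 649 were found. Thinning drew UMIs without replacement. Sub-clusters used scanpy 1.11.5 (1000 variable genes, 20 components, 15 neighbours, resolution 0.5); its Scrublet marked doublets, which were kept. The ratio code was tested on simulated data. Shares at equal depth use the 9500-UMI thinning. Annotation was GENCODE vM21 and RefSeq promoters. Alternatives changed the rule, the comparison group, scaling, depth and minimum UMIs.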

Additional observations from a re-analysis of the deposited data

How the results depend on the processing

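With Lhx1 at 1 or more or at 3 or more UMIs the rule took 474 or 303 cells, with no condition on Slc17a6 481, with no mitochondrial maximum 456, with a maximum of 5% 35, and by Onecut1 2 or more instead of Lhx1 47. The 259 higher genes stayed within 1.5-fold in number except for 112 with the Onecut1 rule, which kept 110 of the 259. That rule also changed the comparison group, to barcodes without an Onecut1 UMI. The group then took in the horizontal cells that held no Onecut1 UMI, and only 37.3% of horizontal cells held one. The genes themselves changed more than their number. Of the 259, 159 were kept under the 5% maximum and 167 with barcodes thinned to 3000 UMIs. Against Lhx1-free barcodes without Slc17a6 172 were kept, and 185 with 5 CPM added. Every other setting kept 194 or more. The 1683 lower genes became 951 under the 5% maximum, 942 with the Onecut1 rule, 1070 against ganglion barcodes alone, 1012 against Lhx1-free barcodes without Slc17a6, 1054 with barcodes thinned to 3000 UMIs, 991 at 300 or more UMIs and 642 with 5 CPM added to both sides and no minimum. The cause was not tested for any of these settings. The number of genes compared also differed, at 8362 after thinning and 8684 at 300 or more UMIs, against 11385 in the main setting. Sub-clusters numbered 8 at resolution 1.0.

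Of 119 ratios of named genes past 4-fold, 100 kept it against Lhx1-free barcodes without Slc17a6, 104 against the equal-weight mean of the 6 classes, 112 against ganglion barcodes (Ret 3.93 and Cdh4 3.5 did not), 72 of 96 with the Onecut1 rule and 117 of the 118 that could be computed against barcodes without Lhx1os. No ratio was computed where an alternative left a gene with 0 UMIs on either side, so 95 of the 119 could be compared under the 5% maximum, of which 94 kept 4-fold, and 106 after thinning to 3000 UMIs, of which 100 kept it. Ratios turned for Hba-a1 (1.58 without doublets, 1.55 against ganglion barcodes, 3.83 against the class mean), Gad1 (1.16 against ganglion barcodes), and Nefl (2.14), Nefm (2.34) and Tubb3 (1.49) against barcodes without Slc17a6. Leaving out cells that meet another class's gene rule (385 cells, chosen after seeing the data) gave 262 higher and 1693 lower genes. Setting the median log2 ratio to 0 gave 302 and 1585. Leaving out each retina was not possible, because barcodes are not tied to retinas. No paired analysis was possible because the barcodes carry no retina number. Depth limits genes such as Gja10 and Onecut1, seen in few cells.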
